A study of Mus musculus with 3 samples.

Results

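The H2 complex is the major histocompatibility complex (MHC) of the mouse, and it was described here through all protein-coding genes on chromosome 17 of the mm10 annotation whose symbol starts with H2-. This rule gave 34 members of 21938 protein-coding genes, of which 24 were class I genes, 9 were class II genes and 1, H2-Ke6, encodes a metabolic enzyme and was counted in neither class. The members lay between positions 33996017 (H2-K1) and 37483552 (H2-M2) of chromosome 17. Chromatin accessibility (ATAC) had been measured in single nuclei of snap-frozen hearts of wild-type mice, together with RNA that was not analysed here. There were 3 groups with 1 library each: hearts given vehicle, hearts given sunitinib (a cancer drug that blocks several receptor tyrosine kinases), and hearts given sunitinib with Yoda1 (a chemical activator of the cation channel PIEZO1). The sample titles carry 3 months without saying whether this is the age or the length of treatment, and neither the strain, and with it the H2 haplotype, nor the number of hearts behind a library is stated. No group was replicated. The spread between animals is therefore unknown, no test was made, and every 95% interval below covers counting error only.

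Class I molecules are heavy chains that pair with beta-2 microglobulin and show peptides from inside the cell to CD8 T cells, and nearly all nucleated cells make the classical chains H2-K1 and H2-D1. The Q, T and M genes encode non-classical class I chains with narrower expression and more specialised ligands. Class II molecules pair an alpha with a beta chain (H2-Aa with H2-Ab1, and H2-Eb1 with an alpha chain) and show peptides from taken-up material to CD4 T cells. They are characteristic of macrophages, dendritic cells and B cells, where the co-activator CIITA acts on an X box and a CCAAT box near the start of each gene. H2-DMa with H2-DMb1 or H2-DMb2 exchanges the peptide on class II molecules, and H2-Oa with H2-Ob restrains that exchange. In the heart, resident macrophages are the best known class II-bearing cells.

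Promoters of 4 members are printed as examples of both classes: H2-Eb1 holds the X box core before a CCAAT box that was found in class II genes alone among the members, H2-K1 and H2-D1 hold the kappa B motif that was found in class I genes alone, and H2-Aa is a class II gene with neither of these matches. They are the 200 bases before a RefSeq transcript start on the gene's own strand, 5′ to 3′, in GRCm38.p6, the mm10 assembly. Capitals mark matches, on either strand, to the CCAAT box (ATTGG), the X box core (AGCAAC) and the kappa B motif (GGGATTCCC). The regions are chr17:34287824-34288023 on the minus strand for H2-Aa, chr17:34305667-34305866 on the plus strand for H2-Eb1, chr17:34000348-34000547 on the minus strand for H2-K1 and chr17:35262894-35263093 on the plus strand for H2-D1, whose RefSeq start lies within the annotated gene.
H2-Aa: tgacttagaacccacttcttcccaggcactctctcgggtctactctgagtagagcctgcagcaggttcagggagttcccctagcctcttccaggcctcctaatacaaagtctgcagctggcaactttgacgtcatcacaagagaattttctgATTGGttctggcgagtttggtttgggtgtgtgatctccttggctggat
H2-Eb1: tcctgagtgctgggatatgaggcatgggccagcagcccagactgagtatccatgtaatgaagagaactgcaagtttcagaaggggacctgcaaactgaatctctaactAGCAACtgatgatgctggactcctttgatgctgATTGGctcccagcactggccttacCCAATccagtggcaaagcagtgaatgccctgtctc
H2-K1: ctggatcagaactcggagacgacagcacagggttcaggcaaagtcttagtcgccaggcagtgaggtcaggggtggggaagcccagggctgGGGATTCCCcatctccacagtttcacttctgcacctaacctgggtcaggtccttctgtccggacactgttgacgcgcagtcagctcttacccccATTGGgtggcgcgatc
H2-D1: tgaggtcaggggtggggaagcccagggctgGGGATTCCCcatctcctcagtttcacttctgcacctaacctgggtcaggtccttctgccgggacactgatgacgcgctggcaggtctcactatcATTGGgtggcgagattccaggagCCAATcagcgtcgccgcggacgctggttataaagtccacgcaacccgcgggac
RefSeq promoters of 250 bases before to 50 after a start were found for 31 of the 34 members, and not for H2-Ab1, H2-Q1 and H2-T24. The X box core standing 20 to 35 bases before a CCAAT box on the same strand was in 78 of 32851 promoters (0.237%). It was in 4 of the 8 class II genes with a promoter (H2-Eb1, H2-Eb2, H2-Oa and H2-Ob) and in 0 of the 22 class I genes. The kappa B motif, in 0.353% of all promoters, was in H2-K1, H2-D1, H2-Q6 and H2-Q7 among the class I genes and in 0 class II genes. The CCAAT box alone, in 37.4% of promoters, was in 8 of 8 class II and 19 of 22 class I genes. The interferon element core AAANNGAAA, in 10.6% of promoters, was in all 3 T genes with a promoter (H2-T22, H2-T23 and H2-T3), in H2-M11, and in H2-DMa and H2-Oa. The cyclic AMP response core TGACG, which is not marked above, was in 20.8% of promoters, in 11 class I genes and in H2-Aa. No match overlapped another motif's match. The matches of H2-DMa are in the second of 2 promoters listed for it (chr17:34125268-34125567), whose last 30 bases are not in its own transcripts, and the promoter at its annotated start (chr17:34122582-34122881) holds none of these motifs. These are matches of letters and show no binding.

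The vehicle library held 18704581 unique fragments and the sunitinib library 23653823, which gave 2727 and 3902 nuclei with medians of 2157 and 2369 fragments. The sunitinib plus Yoda1 library stands apart, with 583792 unique fragments from 209296546 read pairs and 12 nuclei, so it was compared only as a whole. The called nuclei of the vehicle and sunitinib libraries had 22 barcodes in common, and neither library shared one with the 12 nuclei. Nuclei were grouped by their accessible chromatin outside the H2 complex and named from marker genes. At least 6 markers of the own list were past 2-fold in each named cluster, including 10 of 10 for cardiomyocytes. T lymphocyte-like nuclei, led by Cd8a, Cd8b1, Rag1 and other genes of developing T cells, were 34.1% of the nuclei under sunitinib (exact Clopper-Pearson interval 32.6 to 35.6) and 8.47% under vehicle (7.45 to 9.58). Myeloid-like nuclei were 6.6% under vehicle and 3.72% under sunitinib, and vascular endothelial-like nuclei 38.2% and 27.2%. The B lymphocyte-like cluster (97 and 140 nuclei) had 6 of 9 B markers past 2-fold, but also 5 of the T markers and 3 of the dendritic cell markers. None of its B markers was among its 10 leading genes. The myeloid-like cluster had 11 of 12 myeloid markers past 2-fold, and also 5 of 9 dendritic cell markers and 3 of the B markers. The part of dendritic cells in its class II values was not tested. A cluster of 9 and 32 nuclei had 3 of 9 dendritic cell markers past 2-fold but none among its 10 leading genes and a median marker ratio of 0.64, and it stayed unnamed, by a rule chosen after seeing the clusters.

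Levels below are fragments over the gene body and 2 kb upstream, scaled to the fragments of the same nuclei as CPM (the unit of counts scaled to library size) and divided by the kb of window, and a window can hold elements of a neighbour. The window of H2-DMa covers Brd2, a broadly expressed gene, and took 925 of the 1817 class II fragments of nuclei under vehicle and 1580 of the 2857 under sunitinib. Those of H2-DMb1 and H2-DMb2 overlap each other. Near-identical copies make some class I values uncertain, since how reads that fit several places were treated is not given in the sources used here: 53.5% of the 50-base words in H2-T22 transcripts, 36.4% in H2-Q4, 35% in H2-Q6 and 26.5% in H2-Q7 also occur in transcripts of other genes. The share was 9.63% for H2-K1, 12.8% for H2-D1, 0.514% for H2-Aa and 0% for H2-Ab1, H2-Eb1 and H2-Eb2. It was 15.5% for H2-Oa, 16.1% for H2-Q2 and 15.0% for H2-Q1. For H2-DMb2 it was 25.9% and for H2-DMb1 22.7%, mostly shared with each other, which leaves values of these class II genes uncertain too.

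The class II chain genes, the 4 genes that encode the peptide-binding chains themselves, were most accessible in myeloid-like and B lymphocyte-like nuclei. In myeloid-like nuclei their summed level was 4.29 under vehicle (interval 3.54 to 5.16, 114 fragments) and 4.43 under sunitinib (3.62 to 5.38, 102 fragments). In B lymphocyte-like nuclei it was 5.38 (4.17 to 6.83) under vehicle and 3.11 (2.41 to 3.96) under sunitinib. Endocardial-like nuclei had 1.55 (1.18 to 1.99) and 1.11 (0.70 to 1.68), and T lymphocyte-like nuclei 1.32 (0.92 to 1.85) and 1.3 (1.13 to 1.48). The remaining classes were close together between 0.56 and 1.03, among them vascular endothelial-like nuclei at 1.03 (0.88 to 1.20) and 0.85 (0.73 to 0.98) and cardiomyocyte-like nuclei at 0.70 (0.46 to 1.03) and 0.67 (0.46 to 0.94). The intervals of the 2 highest classes did not overlap those of any other class in the same library, while neighbours among the other classes overlapped. Over the other nuclei, with both libraries summed, the log2 ratio was 2.04 (1.82 to 2.25) in myeloid-like, 1.82 (1.55 to 2.07) in B lymphocyte-like, 0.13 (-0.07 to 0.33) in T lymphocyte-like, -0.54 (-0.73 to -0.36) in vascular endothelial-like and -0.86 (-1.28 to -0.50) in cardiomyocyte-like nuclei.

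**Figure D1:**
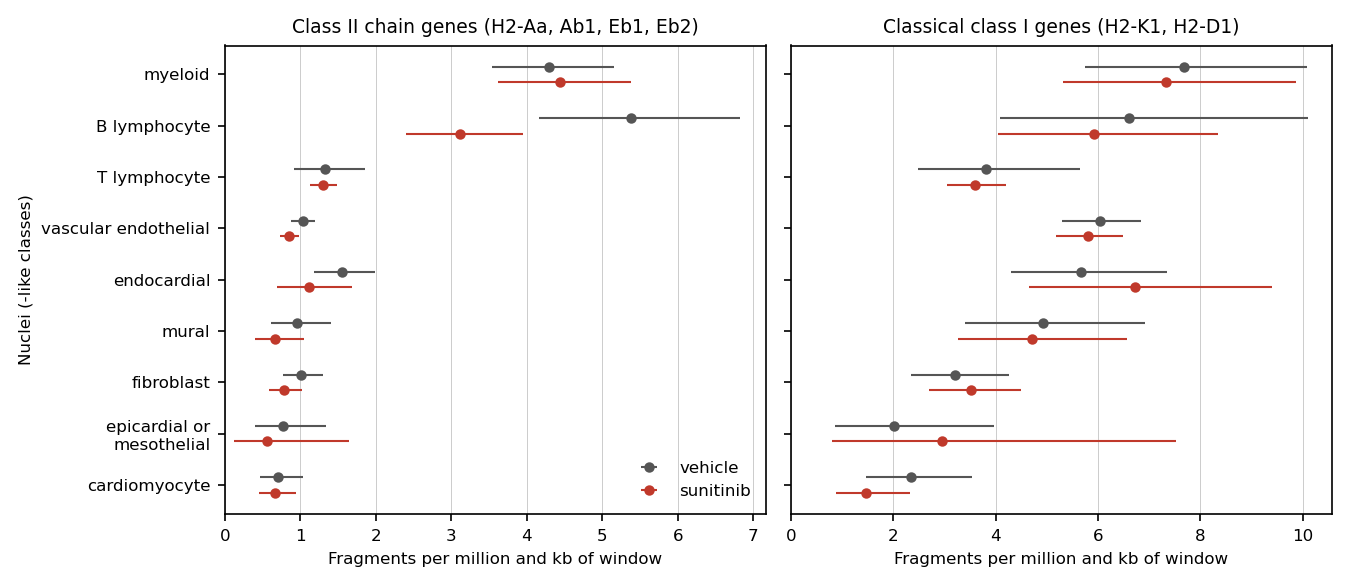
Summed accessibility of the 4 class II chain genes (left) and the 2 classical class I genes (right) in each cell class, in CPM per kb of window (x axis). Points are the vehicle (grey) and sunitinib (red) libraries and bars are exact 95% Poisson intervals. Class II chains are at 3.11 or above in myeloid-like and B lymphocyte-like nuclei and at 1.55 or below in the others, while classical class I genes are spread between 1.47 and 7.68.

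H2-Aa, the alpha chain of the A molecule, stood 2.73 on the log2 scale over the other nuclei in myeloid-like nuclei (2.18 to 3.24) and 2.63 in B lymphocyte-like nuclei (1.97 to 3.20). H2-Eb1, a beta chain of the E molecule, stood at 2.05 (1.68 to 2.39) and 1.65 (1.16 to 2.09). H2-Ab1, the beta chain of the A molecule, stood at 1.68 (1.29 to 2.03) and 1.49 (1.00 to 1.93). H2-Eb2 stood at 2.41 (1.68 to 3.05) and 2.41 (1.54 to 3.12), from a low level of 0.23 CPM per kb in all nuclei under vehicle. All 4 chain genes were thus higher in both classes than elsewhere, and in T lymphocyte-like nuclei their intervals included 0, with ratios from -0.14 at H2-Aa to 0.36 at H2-Eb2.

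The peptide loading genes were less alike. H2-DMb2 stood at 2.59 (2.10 to 3.03) in myeloid-like nuclei and at 1.53 (0.74 to 2.18) in B lymphocyte-like nuclei, but also at 1.31 (0.90 to 1.71) in T lymphocyte-like nuclei. H2-DMb1 stood at 1.97 (1.10 to 2.69) and 1.86 (0.75 to 2.70) in the first 2 classes and at -0.66 (-1.67 to 0.13) in T lymphocyte-like nuclei. H2-Ob stood at 1.43 (0.90 to 1.90) in myeloid-like, 1.60 (0.98 to 2.12) in B lymphocyte-like and 0.56 (0.18 to 0.91) in T lymphocyte-like nuclei. H2-Oa, its partner, was highest in T lymphocyte-like nuclei, at 2.26 (1.79 to 2.74), with levels of 4.91 under vehicle and 4.01 under sunitinib, against 0.53 and 0.30 in vascular endothelial-like nuclei. H2-DMa stood between -0.34 in cardiomyocyte-like and 0.60 in B lymphocyte-like nuclei, over a window that Brd2 shares. In vascular endothelial-like nuclei H2-Oa (-2.24), H2-DMb1 (-1.74), H2-DMb2 (-1.52) and H2-Eb2 (-1.3) were all lower than in the other nuclei with intervals below 0.

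Classical class I genes were accessible in every class, with a narrower spread. Their summed level was 7.68 (5.74 to 10.1) under vehicle and 7.33 (5.30 to 9.87) under sunitinib in myeloid-like nuclei, and 6.61 and 5.91 in B lymphocyte-like nuclei. It was 6.03 (5.29 to 6.84) and 5.81 (5.18 to 6.49) in vascular endothelial-like and 5.67 and 6.72 in endocardial-like nuclei. Mural-like nuclei followed with 4.92 and 4.70, T lymphocyte-like with 3.82 and 3.59, and fibroblast-like with 3.20 and 3.51. Cardiomyocyte-like nuclei had 2.34 (1.46 to 3.54) and 1.47 (0.87 to 2.32), and epicardial or mesothelial-like nuclei 2.01 and 2.94 from 8 and 4 fragments. The intervals of the first 5 classes overlapped one another in each library, so their order is not fixed by these counts. Cardiomyocyte-like nuclei lay below vascular endothelial-like nuclei without overlap in both libraries. Over the other nuclei, the log2 ratio of the 2 genes was 0.78 (0.45 to 1.07) in myeloid-like, 0.61 (0.45 to 0.77) in vascular endothelial-like, -0.39 (-0.62 to -0.16) in T lymphocyte-like and -1.35 in cardiomyocyte-like nuclei.

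The non-classical class I genes divided by cell class. H2-Q6 and H2-Q7, which encode chains of the Qa-2 antigen, were higher in vascular endothelial-like nuclei, at 1.37 (1.04 to 1.71) and 0.94 (0.63 to 1.25), and lower in T lymphocyte-like nuclei, at -1.02 (-1.64 to -0.48) and -1.14 (-1.74 to -0.62). H2-Q1 and H2-Q2 showed the opposite arrangement, at 2.21 (1.76 to 2.65) and 2.38 (1.97 to 2.79) in T lymphocyte-like and at -0.87 (-1.44 to -0.35) and -0.64 (-1.15 to -0.18) in vascular endothelial-like nuclei. H2-Q2 was named after its values had been seen. The level of H2-Q2 in T lymphocyte-like nuclei was 5.22 under vehicle and 4.21 under sunitinib, against 1.05 and 1.06 in vascular endothelial-like nuclei. H2-Q4 stood at 0.55 in vascular endothelial-like and 0.09 (-0.22 to 0.38) in T lymphocyte-like nuclei.

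H2-M3, which presents bacterial N-formyl peptides, was highest in B lymphocyte-like nuclei, at 1.51 (0.98 to 1.96), with levels of 8.56 under vehicle and 10.0 under sunitinib. It was lowest in cardiomyocyte-like nuclei, at -1.77 (-2.84 to -0.98), with levels of 0.89 and 1.20. H2-T23, which encodes the Qa-1 antigen read by natural killer cell receptors, H2-T22 and H2-T24 lay within 1 unit of 0 in myeloid-like, endothelial-like and both lymphocyte-like classes. In cardiomyocyte-like nuclei they stood at -1.56 (-2.71 to -0.74), -2.04 (-3.35 to -1.13) and -1.26 (-2.07 to -0.63). The rest of the 12 M genes were nearly closed. H2-M5 had 60 and H2-M10.2 had 32 fragments over all nuclei of both libraries, 9 had 8 to 20, and 8 of the 12 did not reach the minimum for a measured gene.

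**Figure D2:**
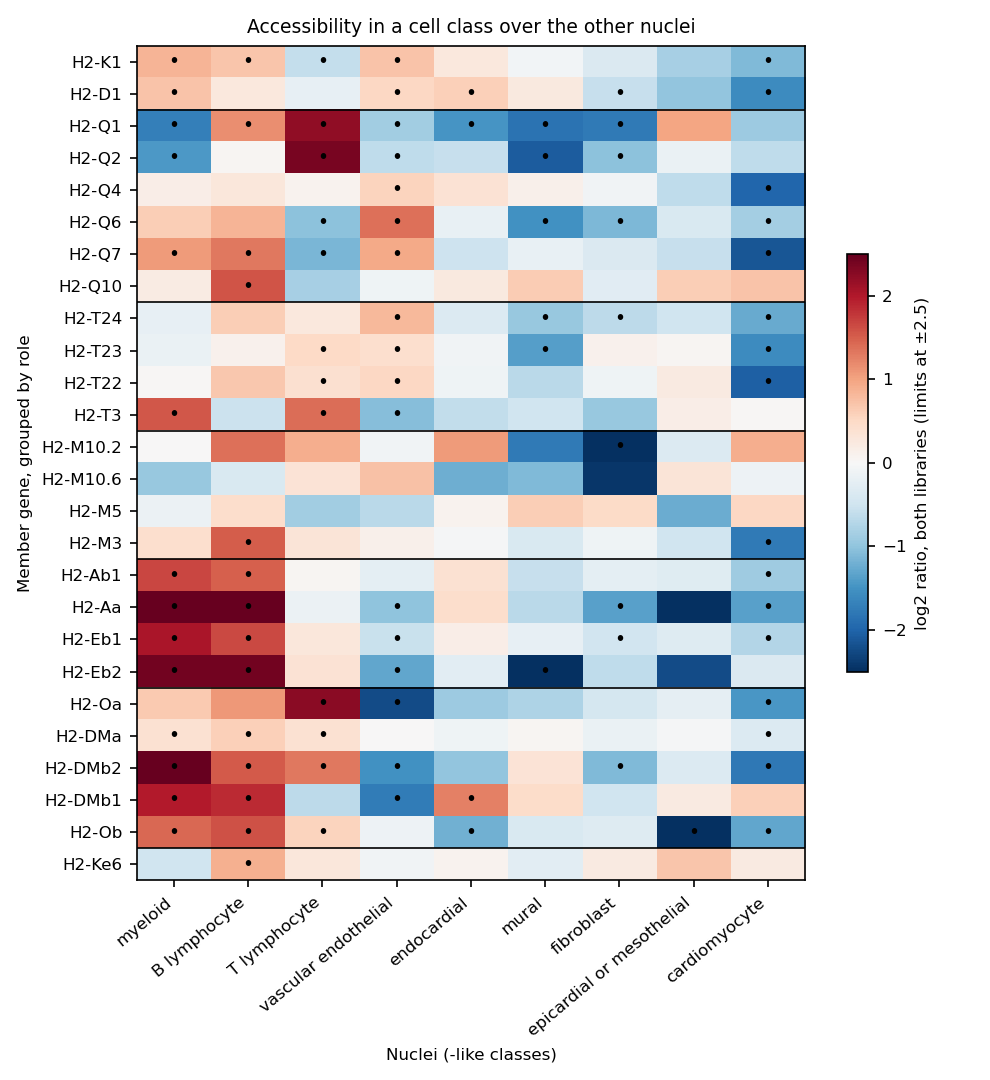
Log2 ratio of each of the 26 measured members (rows, grouped by role) in a cell class over the other nuclei (columns), both libraries summed and colours limited at 2.5 either way. Dots mark intervals that leave out 0. Class II genes are red in the myeloid and B columns, H2-Oa, H2-Q1 and H2-Q2 in the T column, H2-Q6 and H2-Q7 in the vascular endothelial column, and most class I genes are blue in the cardiomyocyte column.

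A gene counted as past the threshold only with a ratio over 2-fold the same way in both libraries, and as measured only with at least 20 fragments and 5 expected on each side, which a member may reach only through the class where it is high. Of the 14 members measured in myeloid-like nuclei, 3 were past it and higher (H2-Ab1, H2-Eb1 and H2-Ob), beside 8.03% of all measured genes in either direction. H2-Aa, H2-Eb2, H2-DMb1 and H2-DMb2, given above as high in this class, did not reach that minimum and are not among the 14. Counting only within 1 kb of transcript starts, 0 members passed, and counting only fragments shorter than a nucleosome, 1 did. The members' medians there were 0.62 under vehicle and 0.29 under sunitinib, against 0.12 and 0.11 over all genes. In B lymphocyte-like nuclei 2 of 9 were higher (H2-Ab1 and H2-M3), beside 6.1% of all genes, and 0 passed within 1 kb of transcript starts, with short fragments or in nuclei with at least 3000 fragments. H2-Aa, H2-Eb2, H2-Ob, H2-DMb1 and H2-DMb2 did not reach the minimum in B lymphocyte-like nuclei. In cardiomyocyte-like nuclei 9 of 17 were lower (H2-D1, H2-Q4, H2-Q7, H2-T22, H2-T23, H2-T24, H2-M3, H2-DMb2 and H2-Ob) and 0 higher, beside 8.69%, with medians of -1.10 and -1.35 against -0.16 and -0.23 over all genes. Cardiomyocyte-like nuclei were thus the class where most measured members lay apart.

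Divided by fragments at transcript starts instead of all fragments, the median of all genes moved from 0.12 and 0.11 to -0.09 and -0.12 in myeloid-like, from 0.22 and 0.16 to -0.11 and -0.08 in B lymphocyte-like, from 0.10 and 0.13 to -0.09 and -0.08 in T lymphocyte-like, from -0.16 and -0.23 to 0.06 and 0.13 in cardiomyocyte-like, and to -0.15 and -0.20 in vascular endothelial-like nuclei, and ratios over the other nuclei moved with it. All 24 class I genes together, 0.19 (0.09 to 0.29) above the other nuclei in T lymphocyte-like nuclei, went to -0.01 (-0.11 to 0.09) under that scaling.

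In vascular endothelial-like nuclei H2-Q6 was higher and 4 of 24 members were lower (H2-Oa, H2-DMb1, H2-DMb2 and H2-Eb2), beside 6.7% of all genes. In T lymphocyte-like nuclei H2-DMb2 was higher and H2-Q7 lower of 15, beside 13.3%, which is near the background. H2-Oa, H2-Q1 and H2-Q2, given above as high in this class, did not reach the minimum for a measured gene there. They are not among the 15. In fibroblast-like nuclei 3 of 20 were lower (H2-Aa, H2-DMb2 and H2-Q6), beside 4.67%. None passed in endocardial-like (0 of 14, beside 1.08%), mural-like (0 of 15, beside 3.81%) or epicardial or mesothelial-like nuclei (0 of 1, beside 3.31%).

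Per kb of window, whether class II or class I genes were the more accessible depended on which genes were summed. With all members, the window that H2-DMa shares with Brd2 and the nearly closed M genes included, the log2 ratio of class II over class I was 1.18 (0.89 to 1.48) under vehicle and 1.20 (0.88 to 1.53) under sunitinib in myeloid-like nuclei. In B lymphocyte-like nuclei it was 1.00 (0.63 to 1.38) and 0.66 (0.33 to 1.00), and in T lymphocyte-like nuclei 0.51 and 0.49. Vascular endothelial-like nuclei had the reverse, -0.16 (-0.31 to -0.0024) and -0.24 (-0.37 to -0.11). In endocardial-like nuclei it was 0.22 (-0.09 to 0.53) and 0.20 (-0.26 to 0.66), and the intervals also included 0 in epicardial or mesothelial-like nuclei in both libraries and in mural-like nuclei under sunitinib (0.39, -0.02 to 0.79). Cardiomyocyte-like nuclei had 0.98 and 0.86, and 67 of their 107 class II fragments under vehicle and 88 of 138 under sunitinib lay in the H2-DMa window. Without H2-DMa and the M genes, class II stood above class I in myeloid-like nuclei (3.78 against 2.91 under vehicle, 3.66 against 2.76 under sunitinib) and in B lymphocyte-like nuclei under vehicle (4.72 against 3.82). It stood below in B lymphocyte-like nuclei under sunitinib (2.51 against 3.05) and in both libraries in the other 7 classes, such as T lymphocyte-like (1.55 against 2.41 and 1.42 against 2.57) and cardiomyocyte-like nuclei (0.60 against 0.89 and 0.58 against 0.96). Over all nuclei it was 1.16 against 2.24 under vehicle and 1.05 against 2.31 under sunitinib. These levels without H2-DMa and the M genes are given without intervals. Where they lie close, as in B lymphocyte-like nuclei, the counts do not fix their order.

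Around the annotated starts, too, myeloid-like and B lymphocyte-like nuclei had the most signal at the class II chain genes. Within 500 bp of the starts of the class II chain genes there were 22.8 fragment ends per gene, scaled as CPM, in myeloid-like and 24.8 in B lymphocyte-like nuclei, against 9.11 in endocardial-like, 7.47 in T lymphocyte-like, 7.42 in fibroblast-like, 6.82 in mural-like, 5.84 in vascular endothelial-like and 3.48 in cardiomyocyte-like nuclei. Values without a named library sum both. The order of myeloid-like and B lymphocyte-like nuclei depended on the library, with 19.8 and 37.1 under vehicle and 26.2 and 17.5 under sunitinib. Their levels over the whole windows had the same order in each library. In B lymphocyte-like nuclei the other starts were lower under sunitinib too. Classical class I starts had 59.8 under vehicle and 41.1 under sunitinib, Q genes 26.1 and 16.1, and T genes 37.1 and 21.8. At the classical class I starts there were 49.2 in myeloid-like, 48.0 in B lymphocyte-like, 40.2 in vascular endothelial-like, 24.6 in T lymphocyte-like and 9.07 in cardiomyocyte-like nuclei. Of the ends within 2000 bp, the nearest 500 bp on each side held 39.6% (33.2 to 46.4) at class II chain and 59.7% (51.7 to 67.4) at classical class I starts in myeloid-like nuclei, where an even spread gives 25%. The share in myeloid-like nuclei was thus higher at the class I starts. These intervals count both ends of a fragment as independent and are too narrow, so their lack of overlap does not settle the difference.

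**Figure D3:**
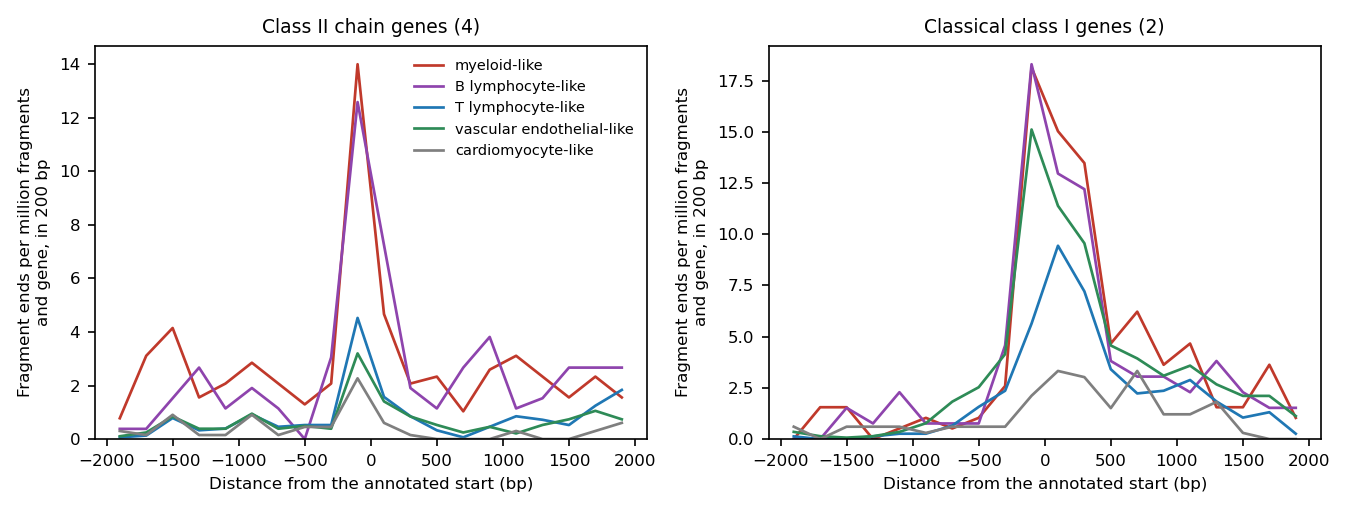
Fragment ends per gene, scaled as CPM, in 200 bp bins (y axis) by distance from the annotated start (x axis, bp), both libraries summed, for 5 cell classes. Class II chains rise above the other classes in myeloid-like and B lymphocyte-like nuclei (22.8 and 24.8 ends within 500 bp), while classical class I starts are also high in vascular endothelial-like nuclei (40.2).

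The comparison of sunitinib with vehicle asks whether accessibility of the complex differed under the kinase inhibitor. Over all nuclei neither class as a whole differed beyond counting error. Class I genes had levels of 1.52 under vehicle (1949 fragments) and 1.57 under sunitinib (3169 fragments), a log2 ratio of 0.04 (-0.04 to 0.13). Class II genes had 1.91 in both (1817 and 2857 fragments), a ratio of -0.01 (-0.09 to 0.08). The class II chain genes were lower, with 1.35 under vehicle (1.24 to 1.47) and 1.12 under sunitinib (1.04 to 1.20), a ratio of -0.27 (-0.43 to -0.11). Over all barcodes, nuclei or not, that ratio was -0.0058 (-0.12 to 0.11). The peptide loading genes, most of whose fragments lie in the shared H2-DMa window, had 2.37 and 2.55, at 0.10 (0.0029 to 0.21). The T genes were higher, with 1.65 and 1.95, at 0.24 (0.08 to 0.40).

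Whole-library ratios mix cell classes, and a smaller share of a class cannot be told apart there from less accessible chromatin within it. Without the T and B lymphocyte-like nuclei the class II chain ratio was -0.34 (-0.53 to -0.15), class II genes together stood at -0.10 (-0.20 to -0.0025) and the T genes at 0.17 (-0.01 to 0.35). This set kept the unnamed nuclei, with 6.79% of the nuclei's fragments under vehicle and 11.8% under sunitinib. Among them was a cluster of 9 and 67 nuclei with 9 of 10 cardiomyocyte markers and 5 T markers past 2-fold. Rag1 and Cd8a were among its 10 leading genes. Its part in the values without lymphocyte-like nuclei, here and below, was not tested. Myeloid-like nuclei, the class with the highest class II chain level among those left, held 6.22% of the nuclei's fragments under vehicle and 3.42% under sunitinib, and their own class II chain ratio was 0.05 (-0.35 to 0.44). The part of that share in the whole-library value was not tested.

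H2-Ab1 had levels of 2.17 under vehicle (248 fragments) and 1.64 under sunitinib (296 fragments), at -0.40 (-0.65 to -0.15). H2-Eb1 had 2.10 and 1.60, at -0.39 (-0.65 to -0.12). Both lay below 0 by intervals and neither reached 1.5-fold. H2-Aa had 1.22 and 1.09, at -0.17 (-0.62 to 0.29). H2-Eb2 went the other way, from 0.23 (34 fragments) to 0.37 (87 fragments), at 0.68 (0.11 to 1.31), and at 0.84 (0.14 to 1.62) without lymphocyte-like nuclei. The 4 chain genes therefore did not share a direction. Of the loading genes, H2-DMb1 had 0.70 and 0.48, at -0.53 (-1.09 to 0.04), H2-DMb2 1.04 and 1.06, at 0.02, H2-Ob 0.87 and 0.97, at 0.15, and H2-Oa 1.18 and 1.60, at 0.44 (-0.06 to 0.97). Without lymphocyte-like nuclei H2-Oa stood at -0.09 (-0.83 to 0.67). H2-DMa outside the Brd2 window stood at 0.28 (0.06 to 0.51) over all nuclei and at 0.11 (-0.16 to 0.37) without lymphocyte-like nuclei.

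H2-K1 had 4.47 and 4.43, at -0.01 (-0.25 to 0.23), and H2-D1 5.14 and 4.33, at -0.25 (-0.47 to -0.02). H2-Q1 had the highest ratio of the members with at least 50 fragments, from 0.74 (41 fragments) to 1.51 (133 fragments), at 1.03 (0.52 to 1.58). It was 1.00 under sunitinib against 0.49 under vehicle in vascular endothelial-like nuclei (0.99, interval -0.06 to 2.24), 3.52 against 2.69 in T lymphocyte-like nuclei (0.32, -0.61 to 1.57), and stood at 0.46 (-0.23 to 1.19) without lymphocyte-like nuclei. The share of T lymphocyte-like nuclei, where H2-Q1 was most accessible, moved with the whole-library value, and its part was not tested. H2-Q10, which encodes a secreted class I chain made by the liver, had 0.80 and 0.51, at -0.66 (-1.3 to -0.01) from 43 fragments each. H2-Q4, H2-Q6 and H2-Q7 stood at -0.10, -0.22 and -0.04, H2-T24, H2-T23 and H2-T22 at 0.26, 0.26 and 0.14, H2-M3 at 0.14 and H2-M5 at -0.08, all within 1.5-fold. The 3 other measured members, among them H2-Ke6, lay between -0.09 and 0.52 with intervals that include 0.

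Of the 26 members measured over all nuclei, 5 were past 1.5-fold, beside 6.81% of all 19215 measured genes. They were H2-Q1, H2-Eb2 and H2-M10.6 (0.84, 5 and 15 fragments) above and H2-Q10 and H2-M10.2 (-0.83, 17 and 15 fragments) below. All 5 had 174 fragments or fewer, and none of the 16 members with at least 200 fragments passed. The members' median ratio was 0.01 and that of all genes 0.00. Without lymphocyte-like nuclei 2 of 25 passed, H2-Eb2 above and H2-M10.2 below.

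**Figure D4:**
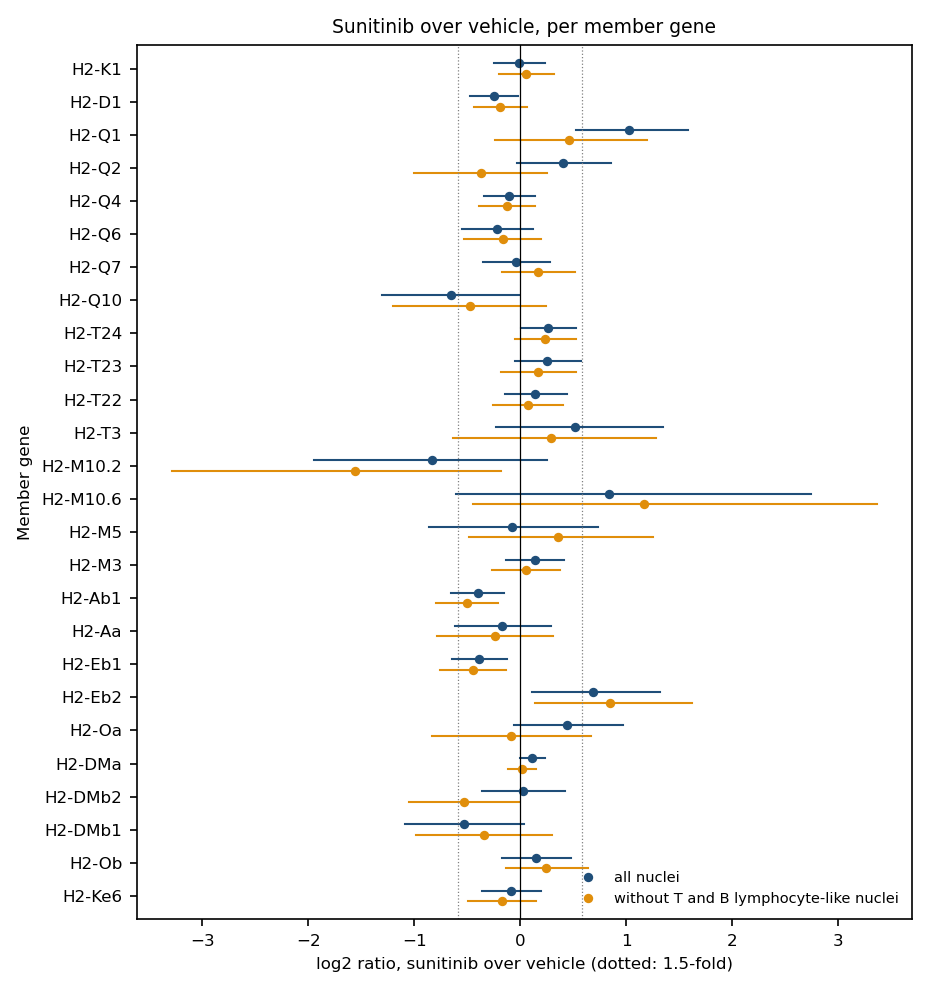
Log2 ratio of sunitinib over vehicle for the 26 measured members (y axis), in all nuclei (blue) and without T and B lymphocyte-like nuclei (orange), with exact 95% intervals and dotted lines at 1.5-fold. H2-Q1 is at 1.03 in all nuclei and 0.46 without lymphocyte-like nuclei, H2-Eb2 is above and H2-Ab1 and H2-Eb1 are below 0 in both.

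Within cell classes, the class II genes were lower under sunitinib in B lymphocyte-like nuclei, and no interval of the other 8 classes left out 0. In B lymphocyte-like nuclei class II genes had 5.41 (4.58 to 6.35, 150 fragments) and 3.52 (3.00 to 4.09, 166 fragments), a log2 ratio of -0.62 (-0.95 to -0.29). The class II chains there stood at -0.79 (-1.3 to -0.28) from 67 and 66 fragments, and class II genes without H2-DMa at -0.91 (-1.33 to -0.50). H2-Eb1 had 9.34 (29 fragments) and 2.83 (15 fragments), at -1.70 (-2.72 to -0.77). H2-Ob had 4.24 and 1.66, at -1.33 (-2.54 to -0.22). H2-Ab1 had 5.11 and 4.76, at -0.12 (-1.03 to 0.87), and H2-Aa 7.57 and 5.13, at -0.57 (-1.73 to 0.63). Class I genes stood at -0.29 (-0.67 to 0.10).

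Of the 13 members measured in B lymphocyte-like nuclei 6 were past 1.5-fold, 1 higher (H2-K1) and 5 lower (H2-Eb1, H2-Ob, H2-D1, H2-Q7 and H2-T24), beside 24.9% of all genes, and their median was -0.30 against -0.03. Since T markers were also high in this cluster, it was split further. The 82 and 91 nuclei then named B lymphocyte-like gave -0.64 (-1.01 to -0.27) for class II, -0.85 (-1.42 to -0.30) for the chains and -0.47 (-0.91 to -0.03) for class I. They had 7 of 9 B markers past 2-fold, and still 3 of the T and 3 of the dendritic cell markers. Before the split the class held 97 nuclei under vehicle and 140 under sunitinib. Whether the mix of B cells and other cells, dendritic cells among them, differed between the libraries was not tested.

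In myeloid-like nuclei class II genes had 4.45 and 4.20, at -0.08 (-0.35 to 0.18), and class I genes 1.96 and 1.83, at -0.10 (-0.45 to 0.25). H2-Aa (4.65 and 7.57), H2-Eb2, H2-Ob and H2-T24 were past 1.5-fold above and H2-Q4 and H2-Q6 below, 6 of 14 beside 20% of all genes, each with an interval that includes 0. In vascular endothelial-like nuclei class I stood at 0.09 (-0.04 to 0.22), class II at 0.01 (-0.15 to 0.17) and the chains at -0.28 (-0.60 to 0.03), with H2-Q1 and H2-Eb2 past 1.5-fold of 20, beside 6.16%. In T lymphocyte-like nuclei class I stood at 0.04 (-0.22 to 0.33) and class II at 0.03 (-0.23 to 0.30), with 0 of 16 members past 1.5-fold beside 13%. The share of this class differed most between the libraries, and the intervals of its class I and class II ratios include 0.

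Cardiomyocyte-like nuclei had class I at 0.10 (-0.34 to 0.56) and class II at -0.01 (-0.39 to 0.37), with 3 of 5 members past 1.5-fold beside 17.8%: H2-K1 and H2-Ab1 below and H2-Eb1 above. Past 1.5-fold in the remaining classes were H2-Eb1 and H2-T24 in endocardial-like nuclei, both below (2 of 10, beside 22.3%), H2-T24 in fibroblast-like nuclei, above (1 of 13, beside 11.8%), H2-Eb1 in mural-like nuclei, below (1 of 5, beside 19.1%), and H2-DMa in epicardial or mesothelial-like nuclei, above (1 of 1, beside 33%). These calls rest on 5 to 30 fragments per gene and library. Outside the nuclei, in barcodes with under 500 fragments, 7 of 34 members were past 1.5-fold and all 7 higher, beside 8.76% of all genes, and the share of fragments at transcript starts was also higher there under sunitinib (17.1% against 13.5%).

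**Figure D5:**
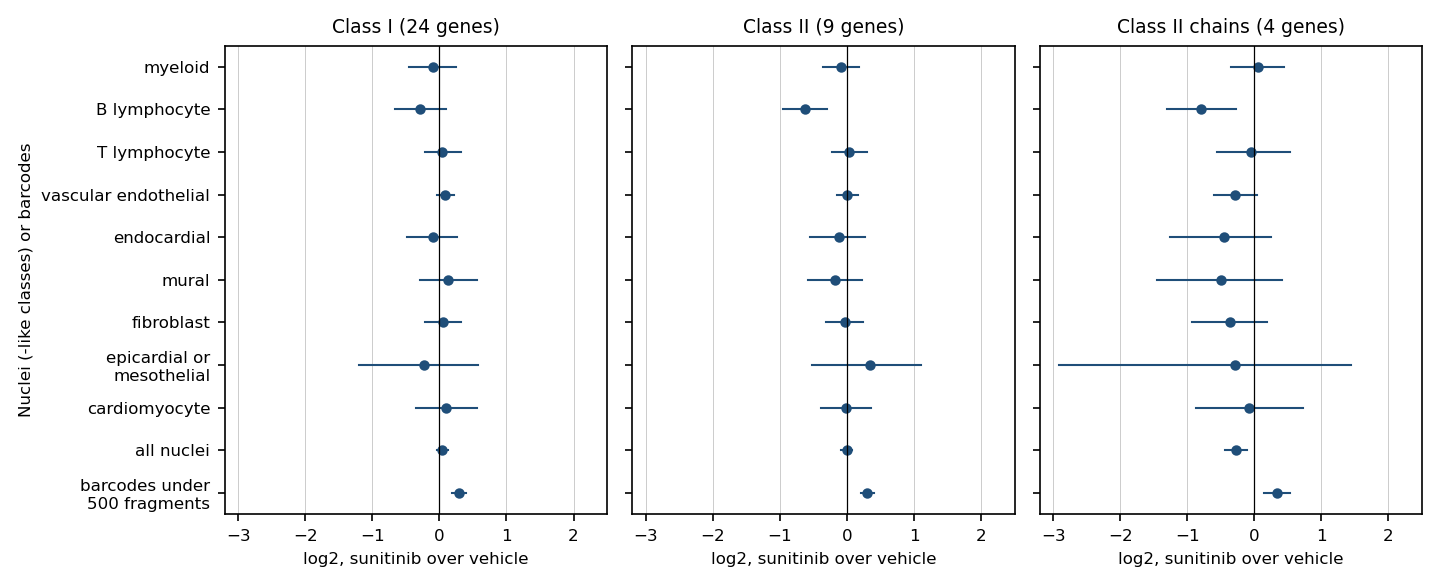
Log2 ratio of sunitinib over vehicle (x axis) for class I genes, class II genes and the 4 class II chain genes in each cell class, in all nuclei and in barcodes with under 500 fragments, with exact 95% intervals. Class II genes are lower in B lymphocyte-like nuclei (-0.62, chains -0.79), and both classes are higher in the low barcodes (0.30).

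The genes that serve antigen presentation from outside the complex's naming rule were taken from a list of 39, of which 38 were found and measured over all nuclei. Of the 38, 1 was past 1.5-fold and higher and 0 lower, beside 6.81% of all measured genes in either direction. It was Cd1d1, which presents lipids to natural killer T cells, with 1.78 under vehicle and 3.30 under sunitinib. Its ratio was 0.89 (0.53 to 1.27), and 0.67 (0.19 to 1.18) without lymphocyte-like nuclei. Cd1d1 was 1.87 on the log2 scale above the other nuclei in T lymphocyte-like nuclei. Tap2, a chain of the peptide transporter, stood at 0.52 (0.31 to 0.73) and Tapbpl, a peptide editor, at 0.49 (0.21 to 0.78), and without lymphocyte-like nuclei at 0.21 and 0.32 with intervals that include 0. Lowest were Pdia3 of the loading complex at -0.27 (-0.45 to -0.09), the proteasome activator gene Psme2 at -0.21 and the immunoproteasome gene Psmb9 at -0.16 (-0.35 to 0.03). The list's median was 0.02.

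The co-activator genes of both pathways had intervals that include 0. Ciita, which switches on class II genes, stood at -0.12 (-0.34 to 0.11) and Nlrc5, its class I counterpart, at -0.10 (-0.25 to 0.06). B2m, the class I light chain, stood at -0.15 (-0.34 to 0.05), Cd74, the invariant chain of class II, at -0.08 (-0.38 to 0.22) and Tap1 at -0.02. In B lymphocyte-like nuclei Cd74 had 12.6 and 6.94, at -0.86 (-1.61 to -0.11), beside the lower class II genes, and Ciita 2.54 and 1.59, at -0.68 (-1.43 to 0.08). By cell class, Cd74 (3.23), Ctss (1.97), Fcgrt (1.67), Ciita (1.45) and March1 (1.32) were past 2-fold above the other nuclei in myeloid-like nuclei in both libraries. These are 5 of 38, beside 8.03% of all measured genes in either direction. These pathway genes lie in chromatin used for the clustering, so their class values are a description. B2m (-1.41), Psmb8 (-1.44) and Cd74 (-1.74) were past 2-fold below in cardiomyocyte-like nuclei, beside 8.69% of all measured genes in either direction.

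The library labelled sunitinib plus Yoda1, whose file header id reads TKI_Drug and does not name Yoda1, takes its group from its title and the design text. It was compared with sunitinib over all barcodes, from its 258020 fragments with at least 100 read pairs. Class I genes held 39 of them, or 151 CPM (107 to 207), against 215 CPM in the sunitinib library, a log2 ratio of -0.49 (-1.0 to -0.05). Without the M genes it was -0.39 (-0.94 to 0.07), an interval that includes 0. Class II genes held 58, or 225 CPM (171 to 291), against 211, at 0.10 (-0.31 to 0.46). The class II chains held 7 fragments, at -0.92 (-2.33 to 0.03), and the classical class I genes 12, at -0.07 (-1.09 to 0.68). Of the 7 members measured, H2-K1 was past 1.5-fold above (0.62, 9 fragments) and H2-D1 below (-0.99, 3 fragments), beside 31.5% of all genes. Over vehicle, class I stood at -0.30 (-0.81 to 0.13) and class II at 0.25 (-0.16 to 0.61), and of the same number of measured members H2-K1 was above and H2-D1 and H2-Eb1 below 1.5-fold, beside 28.4% of all genes. H2-Aa, H2-Eb2, H2-Q1 and H2-Q2 held 0 fragments, which allows up to 14.3 CPM by the exact interval. The library differs from the others in depth, in fragment quality and in the version of the authors' pipeline, which cannot be told apart from the treatment, and its cell classes were not measured.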

How the data were processed

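Chromatin accessibility was measured by single-nucleus multiome sequencing in 3 mouse heart libraries, 1 per group, and groups come from the sample titles and the design text. The third library's file header id (TKI_Drug) does not name Yoda1. Each line of the deposited fragment lists holds 1 unique fragment, its barcode and the raw count of its read pairs, and no barcode had been filtered out. The lists were produced against mm10 by cellranger-arc, per the file headers, with version 2.0.0 for vehicle and sunitinib and 2.0.2 for sunitinib plus Yoda1. Cell Ranger and Signac are named in the submitters' processing notes.

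From these files, barcodes with at least 1000 fragments, a start site enrichment of at least 4 and at most 4 times as many fragments from 147 to 294 bp as shorter ones were called nuclei, and 121880 barcodes of the sunitinib plus Yoda1 library held under 500. No doublet caller was run, and the deepest nuclei held 64499 and 97791 fragments. Nuclei of the vehicle and sunitinib libraries were clustered by latent semantic indexing of 60000 tiles of 5000 bp (30 components, 20 neighbours, Leiden resolution 0.8), without chromosome 17 from 33496017 to 37983552. A cluster took a name with at least 3 markers of a list past 2-fold and that list's median highest, and stayed unnamed where its 10 leading genes held more markers of another class than of its own, or none of its own with a median marker log2 ratio under 1. That last rule was chosen after seeing the clusters.

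Fragments in a window of gene body and 2 kb upstream, each counted once per gene or gene group, were summed per class and library. Log2 ratios had 0.5 added to both counts, with conditional exact 95% intervals. Levels have exact Poisson intervals and shares exact Clopper-Pearson intervals, for counting error only, since fragments carry no molecular identifiers. Genes counted as measured from 20 fragments over both sides, with 5 or more expected on each. Past the threshold meant 1.5-fold for treatments and 2-fold in both libraries for cell classes. On data simulated from the depths of all nuclei (19223 genes), 95.8% of intervals for sunitinib over vehicle held the true ratio. Those counts were drawn with the counting error that the intervals assume and no spread between nuclei or animals. The share therefore checks the computation only.

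Named members were H2-K1, H2-D1, all class II genes, the 3 Q, T and M genes with most fragments and those past 1.5-fold with at least 50 fragments. Of the pathway genes, the 3 highest, the 3 lowest and Ciita, Nlrc5, B2m, Cd74 and Tap1 were named, and others are named where few passed a threshold. The members and lists were chosen with earlier results of these data known. Summing the class II chains alone, leaving out H2-DMa from class II or the M genes from class I, and splitting the B lymphocyte-like cluster (resolution 3) were added after seeing the data. Software was Python 3.11.15, NumPy 2.4.6, pandas 2.3.3, SciPy 1.17.1, scikit-learn 1.9.0, igraph 0.11.9, leidenalg 0.10.2 and matplotlib 3.10.9.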

Additional observations from a re-analysis of the deposited data

Results flagged for a closer look

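Barcodes with under 500 fragments were not called nuclei. Among those of the vehicle and sunitinib libraries, both classes of H2 genes were more accessible under sunitinib than under vehicle. Class I genes had 1354 fragments under vehicle and 1674 under sunitinib, a log2 ratio of 0.30 (0.19 to 0.40), and class II genes 1526 and 1893, also 0.30 (0.20 to 0.40). The ratio over all nuclei was 0.04 for class I and -0.01 for class II. Of the 34 members, all measured here, 7 were past 1.5-fold and higher and 0 lower, beside 8.76% of all genes in either direction. H2-Q1 (1.34), H2-Q2 (0.96), H2-Oa (0.87), H2-T23 (0.83) and H2-M3 (0.60) were among them. By intervals, 11 members lay above 0 and 2, H2-Q6 and H2-Q7, lay below it. The members' median was 0.26 and that of all genes 0.09. The share of all fragments that lay within 1 kb of transcript starts was 13.5% under vehicle and 17.1% under sunitinib in these barcodes. Divided by those fragments, class I stood at -0.05 (-0.15 to 0.06) and class II at -0.04 (-0.14 to 0.06).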

How the results depend on the processing

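Of 350 values of the main results under other settings, 311 stayed within the counting interval or, for counts, within 1.5-fold, and 38 moved further. The remaining 1, whose main interval left out 0, changed sign and was counted as a reversal. Ratios near 0 also changed sign among the 311 and the 38. Class I under sunitinib over vehicle in myeloid-like nuclei, for example, was -0.10 in the main setting and ranged from -0.25 to 0.09. The cause was not tested. For sunitinib over vehicle in all nuclei, fragments shorter than a nucleosome (short fragments below) gave -0.049 for class I, all barcodes gave 0.19 for class I, 0.15 for class II and -0.0058 for the class II chains, and leaving out lymphocyte-like nuclei gave -0.10 for class II. In vascular endothelial-like nuclei class I stood at 0.22 with at least 3000 fragments per nucleus and at -0.045 with short fragments, and the chains at -0.85 with short fragments. In myeloid-like nuclei the chains stood at 0.46 with at least 3000 fragments.

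Over the other nuclei, scaling by fragments at transcript starts gave class I 0.29 in vascular endothelial-like, 0.10 in myeloid-like, -0.011 in T lymphocyte-like (a change of sign) and 0.38 in B lymphocyte-like nuclei. It gave class II -0.47, 1.07, 0.23 and 0.93 in the same order, and the chains 1.55 in B lymphocyte-like nuclei. Short fragments gave class I 0.49 and the chains 2.34 in myeloid-like nuclei, and the chains -0.84 in vascular endothelial-like nuclei. Resolution 3, chosen after seeing the data, gave class II 1.39 and the chains 2.11 in B lymphocyte-like nuclei.

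Members past 1.5-fold under sunitinib, 5 in the main setting, were 2 within 1 kb of transcript starts, 2 without lymphocyte-like nuclei, 3 with at least 50 and 0 with at least 200 fragments per gene, where fewer genes are tested. Members past 2-fold in myeloid-like nuclei, 3, were 0 at transcript starts and 1 with short fragments. Those in B lymphocyte-like nuclei, 2, were 0 at transcript starts, with at least 3000 fragments and with short fragments. They were 1 in gene bodies alone, without the 5% deepest nuclei, under start scaling, with at least 2 read pairs and with at least 200 fragments. Over the 9 cell classes 16 different members passed in at least 1, and 9 did with at least 3000 fragments and 7 with short fragments. Changes of sign counted as reversals among other values were class II without H2-DMa (0.075) and H2-D1 (0.083) over all barcodes, and H2-Q6 in cardiomyocyte-like nuclei with short fragments (0.070). The lower class II genes in B lymphocyte-like nuclei lay between -0.80 and -0.50 under sunitinib over vehicle in 11 other settings, and the chains between -0.87 and -0.51. With 1 library per group, no spread between animals could be set beside any ratio.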
